A study of Homo sapiens with 12 samples.

Results

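Collagen chain genes were taken as every protein-coding gene whose symbol has the form COL, a number, A and a number, which gave 44 genes of 19892 protein-coding genes and of 60617 gene identifiers in each count file. RNA-seq had been performed on 12Z cells, an immortalized line of human endometriotic epithelial cells, with 3 independent experiments in each of 4 groups. The groups were cells given pBabe with PIK3CA*H1047R and 100 nM insulin (H1047R insulin), the same plasmid and vehicle (H1047R vehicle), empty pBabe and 100 nM insulin (control insulin), and empty pBabe and vehicle (control vehicle). All 12 libraries came from 1 cell line that also carried a non-targeting siRNA and had its plasmid by transient transfection. Serum was removed 4 h before insulin or vehicle was added, and cells were harvested 24 h after that addition. H1047R is an activating change in the catalytic subunit of PI3K, the lipid kinase that passes the insulin signal on to AKT.

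Collagens are proteins of the extracellular matrix made of 3 chains wound around each other in a triple helix. Fibrillar collagens build the cables of connective tissue, type IV collagens build the sheet of the basement membrane on which epithelia sit, and FACIT collagens (fibril-associated collagens with interrupted triple helices) attach to fibrils. The remaining types include the beaded filaments of type VI, the networks of type VIII, the anchoring fibrils of type VII and collagens that span the cell membrane. By class, the 44 genes comprised 11 fibrillar, 6 type IV, 10 FACIT and 17 other chains.

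Libraries held 21483124 to 37918025 gene counts, with 30071951 to 37918025 in H1047R insulin and at most 29255708 in the other groups. Reads placed at several sites made up 8.48 to 9.51% of reads in H1047R insulin and 13.6 to 15.4% in the other 3 groups, which cannot be told apart from the combination of plasmid and insulin. PIK3CA, counted over plasmid and endogenous transcripts together, had 734, 714 and 715 CPM (counts per 1000000 gene counts) in H1047R insulin, 312, 180.1 and 215 CPM in H1047R vehicle, 81.1, 85.9 and 80.9 CPM in control insulin and 89.0, 88.2 and 88.7 CPM in control vehicle. H1047R vehicle replicate 1 stood apart from replicates 2 and 3 of its group when genes reaching a summed count of 20 were compared, with chi-square per degree of freedom of 5.28 and 5.90, against 2.76 between replicates 2 and 3 and 2.70 to 4.88 within the other groups. In H1047R cells insulin went with a PIK3CA level 3.06-fold that of vehicle (log2 fold change 1.62 ± 0.084 SE, adjusted p = 5.33e-19), and every comparison with H1047R insulin is also one between PIK3CA levels. Of 10 epithelial markers, 7 averaged at least 1 CPM, led by the keratins KRT8 (1428 CPM), KRT18 (982 CPM) and KRT19 (657 CPM), while EPCAM (0.60 CPM) and CLDN3 (0.55 CPM) lay below that. All 12 stromal or mesenchymal markers averaged at least 1 CPM, with VIM at 2008 CPM. Summed over each library, those stromal markers spanned 3246 to 3376 CPM in H1047R insulin and 3191 to 3364 CPM in H1047R vehicle, 2927 to 3055 CPM in control insulin and 3240 to 3279 CPM in control vehicle. VIM made up most of these sums, at 2292 ± 50.7 CPM in H1047R insulin and 2043 ± 124 CPM in H1047R vehicle (SD, n = 3 each). The summed endothelial markers stayed between 6.14 and 9.67 CPM in all 12 libraries and the summed leukocyte markers between 3.86 and 6.52 CPM, with CD3E at 0.

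Of the 44 chain genes, 35 averaged at least 1 count per library and were tested, namely all 11 fibrillar, all 6 type IV, 6 of 10 FACIT and 12 of 17 other chains. The 9 untested genes were COL6A5, COL9A1, COL10A1, COL19A1, COL20A1, COL22A1, COL23A1, COL25A1 and COL28A1. COL6A5, COL9A1, COL19A1 and COL22A1 had no count in any library, where 3 counts, the limit that a count of 0 allows, are worth 0.0778 to 0.140 CPM, and the other 5 never passed 3 counts. Of the tested genes, 27 averaged at least 1 CPM and 11 averaged at least 100 CPM.

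Collagen expression rested on a few fibrillar chains. COL1A1, the main chain of type I collagen, took 31.3% of all collagen counts and was the 12th most abundant of all genes. COL3A1, the chain of type III collagen, took 20.7% and ranked 22nd, and COL5A2, a chain of the type V collagen found inside type I fibrils, took 11.5% and ranked 69th. Together these 3 genes held 63.4% of collagen counts, and the 12 most abundant chains held 97.6%. Divided by exon length, levels were 296 CPM per kb for COL1A1, 266 for COL3A1 and 135 for COL5A2, followed by COL6A1 at 52.0, COL1A2 at 45.8, COL5A1 at 45.0 and COL6A2 at 37.9 CPM per kb. The type IV chains were led by COL4A2 at 26.9, COL4A1 at 18.7 and COL4A5 at 16.6 CPM per kb, and COL12A1 led the FACIT chains at 17.9 CPM per kb. COL4A3 and COL4A4, the chains of kidney and lung basement membranes, were far below these, with COL4A4 at 0.419 CPM per kb and COL4A3 at 0.0325 CPM per kb.

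**Figure D1:**
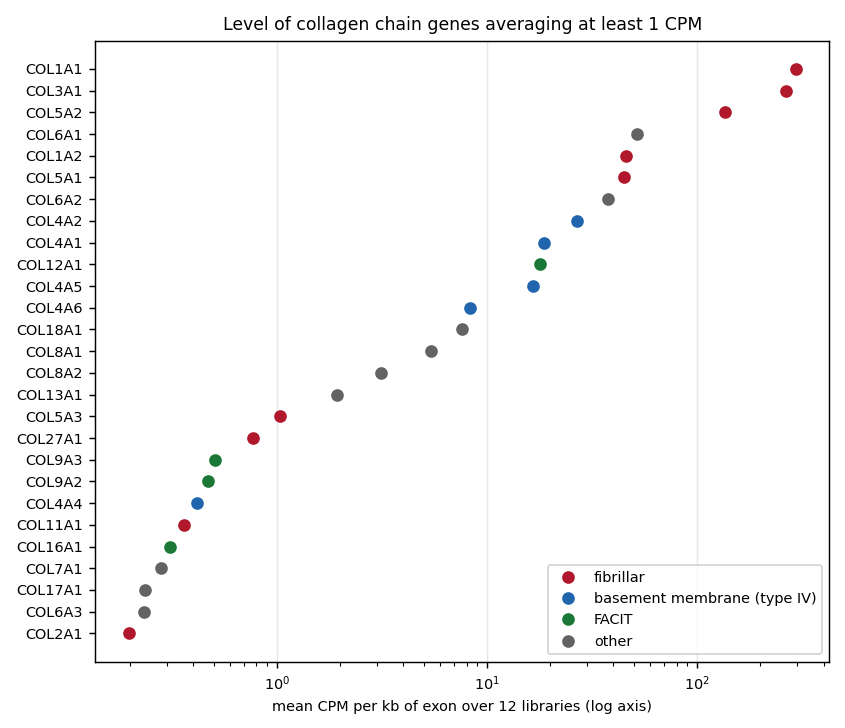
Mean level of the 27 collagen chain genes that averaged at least 1 CPM, over 12 libraries, in CPM per kb of exon on a log axis, with 1 point per gene coloured by class. Levels run down to 0.197 CPM per kb for COL2A1, the cartilage collagen, and the 3 highest points are the fibrillar chains COL1A1, COL3A1 and COL5A2.

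Summed over all 44 chains, collagen took 6262, 6166 and 6077 CPM in H1047R insulin, against 8636, 9347 and 9212 CPM in H1047R vehicle. The sums were 9108, 9116 and 9486 CPM in control insulin and 9680, 9873 and 9566 CPM in control vehicle. Every H1047R insulin library thus lay below every library of the other 3 groups, whose lowest value was that of H1047R vehicle replicate 1. Fibrillar chains carried most of the difference, with 4274 ± 83.3 CPM in H1047R insulin and 6913 ± 326 CPM in H1047R vehicle (SD, n = 3 each). They summed to 7276 ± 227 CPM in control insulin and 7433 ± 78.5 CPM in control vehicle. FACIT chains summed to 251 ± 6.39 CPM in H1047R insulin, 381 ± 34.9 CPM in H1047R vehicle, 368 ± 23.2 CPM in control insulin and 384 ± 21.2 CPM in control vehicle. Type IV chains summed to 987 ± 7.18 CPM in H1047R insulin and 1115 ± 19.8 CPM in H1047R vehicle. In control cells they summed to 997 ± 21.3 CPM with insulin and 1183 ± 58.3 CPM with vehicle. For this class the H1047R insulin libraries overlapped those of control insulin. The other chains summed to 656 ± 15.3 CPM in H1047R insulin and 657 ± 2.22 CPM in H1047R vehicle, within the spread of replicates. Their sums were 596 ± 17.5 CPM in control insulin and 706 ± 26.1 CPM in control vehicle. These sums are given as a description, without a test, and in bulk RNA fewer cells of a type and less RNA per cell cannot be told apart.

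To examine the response to insulin in PIK3CA mutant cells, H1047R insulin was compared with H1047R vehicle. The abundant fibrillar chains COL1A1, COL1A2, COL3A1, COL5A1 and COL5A2 fell, while the membrane-spanning chains COL13A1 and COL17A1 and the anchoring fibril chain COL7A1 rose. Of the 35 tested chains, 12 fell and 5 rose at an FDR below 0.001, where 19.6% of all 22756 tested genes were called (9.8% lower and 9.85% higher). The median log2 fold change was -0.23 over the collagen chains and -0.00 over all genes. By level, 8 of the 11 chains averaging at least 100 CPM fell and 0 rose, and 3 of the 16 chains between 1 and 100 CPM fell and 5 rose. Among all genes reaching 1 CPM in 3 libraries, 2211 of 13726 were lower and 2143 higher. The share of all genes at 100 CPM or above was not taken, and small changes are easier to call at high counts. At an unadjusted p below 0.05 in edgeR, 10 of those 11 abundant chains were lower and 0 higher, and DESeq2 called 8 lower and 0 higher.

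Among the fibrillar chains, 5 of 11 fell and 1 rose. COL3A1 had 927, 923 and 877 CPM in H1047R insulin, against 1821, 2035 and 1998 CPM in H1047R vehicle. The groups were far apart, and the log2 fold change was -1.10 ± 0.039 (SE, adjusted p = 5.41e-24). COL1A2, the second chain of type I collagen, had 293, 291 and 288 CPM in H1047R insulin, against 511, 573 and 548 CPM in H1047R vehicle (log2 fold change -0.91 ± 0.038, adjusted p = 1.04e-21). Its partner COL1A1 fell less, to 2031, 1989 and 1966 CPM in H1047R insulin, against 2704, 2904 and 2857 CPM in H1047R vehicle (log2 fold change -0.50 ± 0.033, adjusted p = 5.21e-16). All H1047R vehicle libraries stood above all H1047R insulin libraries for each of these chains, and H1047R vehicle replicate 1 was the lowest of its group.

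COL5A2 had 625, 624 and 576 CPM in H1047R insulin, against 970.4, 1098 and 1091 CPM in H1047R vehicle (log2 fold change -0.79 ± 0.043, adjusted p = 2.25e-18). Its usual partner in type V collagen, COL5A1, changed by -0.23 ± 0.036 (adjusted p = 1.51e-06), with 452, 427 and 455 CPM in H1047R insulin, against 515, 526 and 522 CPM in H1047R vehicle. COL27A1, a fibrillar chain of cartilage, was the one member of its class that rose, with 15.3, 15.3 and 14.3 CPM in H1047R insulin, against 9.39, 9.43 and 8.37 CPM in H1047R vehicle (log2 fold change 0.72 ± 0.083, adjusted p = 2.16e-09). The fibrillar chains that did not pass the test and averaged at least 1 CPM were COL2A1 (log2 fold change -0.72), COL5A3 (-0.24) and COL11A1 (0.02).

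Of the 6 type IV chains, 3 fell and 0 rose in edgeR, with 5 lower and 1 higher at an unadjusted p below 0.05 and 3 lower and 1 higher in DESeq2. COL4A2 had 466, 464 and 463 CPM in H1047R insulin, against 533, 566 and 545 CPM in H1047R vehicle (log2 fold change -0.24 ± 0.038, adjusted p = 2.34e-06). COL4A1, which forms the commonest type IV molecule together with COL4A2, had 238, 247 and 242 CPM in H1047R insulin, against 265, 289 and 288 CPM in H1047R vehicle (log2 fold change -0.21 ± 0.041, adjusted p = 4.38e-05). Without H1047R vehicle replicate 2 its adjusted p was 0.00105, just above the threshold. COL4A4 fell further, to 2.32, 2.31 and 2.75 CPM in H1047R insulin, against 5.18, 7.01 and 4.64 CPM in H1047R vehicle (log2 fold change -1.19 ± 0.138, adjusted p = 2.99e-09). COL4A3, the partner of COL4A4 at 0.400 CPM on average, had a log2 fold change of -1.02 without a call (adjusted p = 0.104). COL4A5 (log2 fold change -0.10, adjusted p = 0.0757) and COL4A6 (0.21, adjusted p = 0.00101) were not called. COL4A6 passed without H1047R vehicle replicate 1, at an adjusted p of 2.27e-06, and also without control vehicle replicate 1, control vehicle replicate 3 or control insulin replicate 3. DESeq2 called it too (adjusted p = 0.000246), as did edgeR with library totals only, no filter or counts without regard to strand.

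COL4A1 and COL4A2 start 127 bases apart on opposite strands of chromosome 13 in RefSeq, and COL4A5 and COL4A6 have starts 380 bases apart on opposite strands of the X chromosome. The windows from 250 bases before to 50 bases after each start (RefSeq, GRCh38.p14) are shown because the 2 genes of a pair share much of the same DNA, 226 bases for COL4A1 and COL4A2 and 121 bases for COL4A5 and COL4A6. Capitals mark matches on either strand, and overlapping matches run together. The letters marked were CCAAT for the box of that name. GGGCGG stood for the GC box. TATAAA stood for the box that fixes the start in many genes, and TGANTCA for the AP-1 site.
COL4A1, chr13:110307108-110307407, minus strand: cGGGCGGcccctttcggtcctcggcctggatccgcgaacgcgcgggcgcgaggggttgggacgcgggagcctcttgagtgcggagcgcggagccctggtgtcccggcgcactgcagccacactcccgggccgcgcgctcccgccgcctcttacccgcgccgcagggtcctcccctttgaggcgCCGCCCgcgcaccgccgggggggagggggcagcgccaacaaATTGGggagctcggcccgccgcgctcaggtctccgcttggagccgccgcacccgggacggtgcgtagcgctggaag
COL4A2, chr13:110307034-110307333, plus strand: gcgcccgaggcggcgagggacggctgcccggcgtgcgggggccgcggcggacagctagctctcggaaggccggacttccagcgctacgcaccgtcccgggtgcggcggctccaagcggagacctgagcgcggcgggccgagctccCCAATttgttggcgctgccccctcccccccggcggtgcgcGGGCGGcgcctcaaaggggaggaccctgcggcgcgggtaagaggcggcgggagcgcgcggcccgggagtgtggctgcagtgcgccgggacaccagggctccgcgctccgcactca
COL4A5, chrX:108439588-108439887, plus strand: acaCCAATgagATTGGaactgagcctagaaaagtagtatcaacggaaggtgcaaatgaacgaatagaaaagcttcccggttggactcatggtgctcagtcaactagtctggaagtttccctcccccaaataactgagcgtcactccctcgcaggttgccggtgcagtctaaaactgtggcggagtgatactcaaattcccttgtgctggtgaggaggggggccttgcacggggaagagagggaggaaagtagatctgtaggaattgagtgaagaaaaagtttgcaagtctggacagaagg
COL4A6, chrX:108439409-108439708, minus strand: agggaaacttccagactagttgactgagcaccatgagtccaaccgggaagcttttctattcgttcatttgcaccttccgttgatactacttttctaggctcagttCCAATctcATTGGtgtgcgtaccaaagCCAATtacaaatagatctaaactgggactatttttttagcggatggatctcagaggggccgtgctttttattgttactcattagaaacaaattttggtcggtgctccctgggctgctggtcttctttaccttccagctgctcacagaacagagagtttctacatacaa
The CCAAT match between COL4A1 and COL4A2 is one and the same, 26 bases before the COL4A1 start and 105 bases before the COL4A2 start. A GC box lies 67 bases before the COL4A1 start and 65 bases before the COL4A2 start. The COL4A5 and COL4A6 windows share a pair of CCAAT matches in opposite orientation and hold no GC box. COL4A6 has a further start, 1416 bases from that of COL4A5, whose window holds 1 GC box and no CCAAT match. Windows were used for 32 of the 44 genes, 44 windows in all. The genes without a printed or searched window were COL1A1, COL1A2, COL2A1, COL3A1, COL5A2, COL6A1, COL6A5, COL8A1, COL9A3, COL14A1, COL20A1 and COL22A1.

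Of the 6 tested FACIT chains, 2 fell and 0 rose in edgeR, with 4 lower and 1 higher at an unadjusted p below 0.05 and 2 lower and 0 higher in DESeq2. COL12A1, which binds type I fibrils, had 247, 237 and 245 CPM in H1047R insulin, against 334, 385 and 399 CPM in H1047R vehicle (log2 fold change -0.62 ± 0.049, adjusted p = 2.00e-13). COL14A1, a related fibril-binding chain, was scarce, with 5, 5 and 5 counts in H1047R insulin and 13, 24 and 23 counts in H1047R vehicle (log2 fold change -2.48 ± 0.385, adjusted p = 1.35e-06). The FACIT chains COL16A1 (log2 fold change 0.47, adjusted p = 0.0108), COL9A2 (-0.55) and COL9A3 (-0.57) were not called.

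The other chains split, with 4 of 12 tested rising and 2 falling. COL17A1, a membrane-spanning collagen of the hemidesmosomes that anchor epithelial cells, had 5.68, 4.35 and 4.72 CPM in H1047R insulin, against 1.39, 0.312 and 0.787 CPM in H1047R vehicle. In raw counts these were 174, 158 and 182 in H1047R insulin and 33, 8 and 19 in H1047R vehicle. The log2 fold change was 2.58 ± 0.229 (adjusted p = 3.53e-12), or 3.19 without H1047R vehicle replicate 1. COL13A1, a membrane-spanning collagen of cell adhesion sites, had 42.0, 39.4 and 40.6 CPM in H1047R insulin, against 23.5, 17.1 and 17.3 CPM in H1047R vehicle (log2 fold change 1.08 ± 0.080, adjusted p = 2.79e-14). COL7A1, the chain of the anchoring fibrils under the epidermal basement membrane, had 4.57, 4.92 and 4.28 CPM in H1047R insulin, against 2.53, 1.87 and 2.90 CPM in H1047R vehicle (log2 fold change 0.92 ± 0.147, adjusted p = 2.29e-06). None of these groups overlapped.

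The 2 chains of the type VIII network moved in opposite directions. COL8A2 had 6.66, 6.96 and 7.23 CPM in H1047R insulin, against 14.4, 16.4 and 15.9 CPM in H1047R vehicle (log2 fold change -1.16 ± 0.080, adjusted p = 2.57e-15). COL8A1 had 62.1, 64.5 and 60.2 CPM in H1047R insulin, against 53.8, 52.6 and 53.2 CPM in H1047R vehicle (log2 fold change 0.23 ± 0.049, adjusted p = 0.000226). That small rise was lost without H1047R insulin replicate 1, H1047R insulin replicate 2 or H1047R vehicle replicate 2 (adjusted p of 0.00120, 0.00415 and 0.00215) and with upper-quartile scaling (0.00121). COL18A1, the basement membrane collagen from which endostatin is cut, had 49.6, 50.6 and 49.9 CPM in H1047R insulin, against 60.9, 69.7 and 67.2 CPM in H1047R vehicle (log2 fold change -0.40 ± 0.052, adjusted p = 4.01e-08). The type VI chains, which form beaded filaments in most connective tissue, gave no call, with log2 fold changes of 0.03 for COL6A1, -0.14 for COL6A2 and 0.38 for COL6A3.

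**Figure D2:**
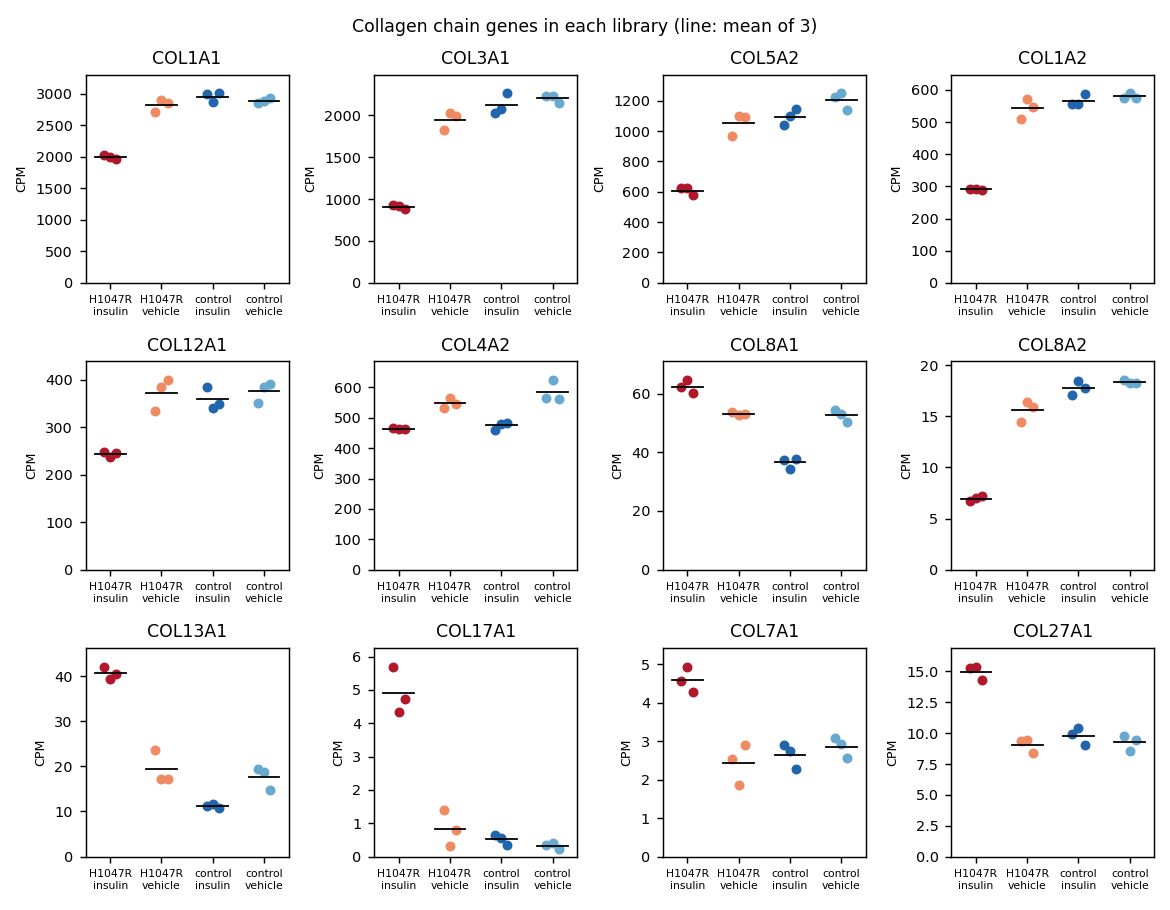
Level of 12 collagen chain genes in each library, in CPM on a linear axis from 0, with 1 point per library, 3 per group, and a line at the group mean. COL1A1, COL3A1, COL5A2, COL1A2, COL12A1 and COL8A2 are lowest in H1047R insulin, and COL8A1, COL13A1, COL17A1, COL7A1 and COL27A1 are highest there. COL4A2 is low in both insulin groups.

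The start windows of COL17A1 and COL13A1, which rose, and of COL8A2, which fell, are shown because they differ widely in base composition, with capitals as before. They were chosen after their values were seen.
COL17A1, chr10:104085831-104086130, minus strand: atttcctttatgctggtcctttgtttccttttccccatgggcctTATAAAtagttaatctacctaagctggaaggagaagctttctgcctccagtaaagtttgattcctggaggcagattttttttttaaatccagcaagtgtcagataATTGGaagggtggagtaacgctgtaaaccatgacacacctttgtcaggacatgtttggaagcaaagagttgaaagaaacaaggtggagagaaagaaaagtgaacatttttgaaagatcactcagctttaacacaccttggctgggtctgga
COL13A1, chr10:69801656-69801955, plus strand: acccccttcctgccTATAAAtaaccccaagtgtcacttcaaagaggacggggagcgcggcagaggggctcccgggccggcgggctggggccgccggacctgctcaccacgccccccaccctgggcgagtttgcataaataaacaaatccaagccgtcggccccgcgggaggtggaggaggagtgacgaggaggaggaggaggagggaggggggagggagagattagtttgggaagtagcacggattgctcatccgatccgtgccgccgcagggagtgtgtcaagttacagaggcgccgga
COL8A2, chr1:36125173-36125472, minus strand: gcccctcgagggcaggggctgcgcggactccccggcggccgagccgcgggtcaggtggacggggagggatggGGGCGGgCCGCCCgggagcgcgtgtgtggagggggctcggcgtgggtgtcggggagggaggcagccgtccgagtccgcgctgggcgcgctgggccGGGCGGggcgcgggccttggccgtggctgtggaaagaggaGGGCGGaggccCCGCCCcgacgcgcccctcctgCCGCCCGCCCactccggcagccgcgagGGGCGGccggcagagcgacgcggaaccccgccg
G and C made up 40.7% of the COL17A1 window, 64.0% of that of COL13A1 and 82.0% of that of COL8A2, which held 8 GC boxes. COL7A1 and COL27A1, which also rose, had windows of 62.3% and 65.7% G and C with 3 GC boxes each. That of COL4A4, which fell, had 74% and 0 GC boxes. Among chains called for insulin in H1047R cells, a GC box occurred in 8 of 9 windows that fell and 2 of 4 that rose. A link of composition to direction was not tested. TATAAA, read on either strand, stood 206 bases before the COL17A1 start and 236 bases before the COL13A1 start. Over all collagen windows, a GC box occurred in 24 of 44 (54.5%), against 44.9% of 35116 windows of all genes, and TATAAA in 8 of 44 (18.2%), against 11.5% of all. A CCAAT box occurred in 14 of 44 (31.8%), against 34.6% of all. The AP-1 letters TGANTCA occurred in 1 of 44 windows (2.27%), against 7.71% of all. Letters of the TEAD site (GGAATG) and the FOXO site (TGTTTAC) were searched as well and are not marked. GGAATG occurred in 3 of 44 windows (6.82%), against 14.0% of all, and TGTTTAC in 0 of 44, against 3.42% of all. Several genes have more than 1 window, and a match is a run of letters and not a site shown to be bound.

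Insulin was then compared with vehicle in control cells, which carried the empty vector. The chains that fell belonged to the type IV, VI, VIII and XIII collagens. Of the 35 tested chains, 6 fell and 0 rose, where 1.63% of all genes were called (1.15% lower and 0.483% higher), and the median over the chains was -0.12. At an unadjusted p below 0.05, 12 chains were lower and 2 higher, and DESeq2 called 7 lower and 0 higher. Of the 11 fibrillar chains 0 were called by edgeR or DESeq2, and at an unadjusted p below 0.05 in edgeR 2 were lower and 1 higher. Log2 fold changes were 0.03 for COL1A1, -0.03 for COL1A2, -0.06 for COL3A1 and -0.14 for COL5A2.

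COL8A1 had 37.3, 34.5 and 37.9 CPM in control insulin, against 54.4, 53.0 and 50.3 CPM in control vehicle (log2 fold change -0.53 ± 0.052, adjusted p = 1.12e-09). COL13A1 had 11.2, 11.7 and 10.8 CPM in control insulin, against 19.5, 18.8 and 14.8 CPM in control vehicle (log2 fold change -0.66 ± 0.096, adjusted p = 4.41e-06). Both of these fell with insulin in control cells and rose with it in H1047R cells. COL6A2 had 181, 192 and 179 CPM in control insulin, against 233, 229.8 and 216 CPM in control vehicle (log2 fold change -0.30 ± 0.040, adjusted p = 1.28e-06). COL4A2 had 461, 479.7 and 483 CPM in control insulin, against 566, 623 and 561 CPM in control vehicle (log2 fold change -0.30 ± 0.038, adjusted p = 4.90e-07), and it was the 1 chain called lower with insulin under both plasmids.

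The pair COL4A5 and COL4A6 fell in control cells by similar amounts, with log2 fold changes of -0.24 ± 0.045 (adjusted p = 0.000417) and -0.30 ± 0.053 (adjusted p = 0.000145). COL4A6 had 62.7, 65.2 and 60.4 CPM in control insulin, against 83.3, 76.9 and 71.3 CPM in control vehicle. Control vehicle replicate 1 was the highest of the control libraries for both genes, and without it the adjusted p was 0.0146 for COL4A5 and 0.00588 for COL4A6. Both calls were also lost without control vehicle replicate 2, control insulin replicate 1 or control insulin replicate 3, at adjusted p up to 0.00649. COL6A1 (log2 fold change -0.18, adjusted p = 0.00285) missed the threshold and passed it without H1047R vehicle replicate 1 (adjusted p = 0.000403), as did COL18A1 (log2 fold change -0.22 with all libraries, adjusted p = 0.000616 without that one). The remaining chains averaging at least 1 CPM had no call. Below 0 were COL4A4 (-0.46), COL5A3 (-0.32), COL9A3 (-0.21), COL4A1 (-0.14), COL7A1 (-0.12), COL12A1 (-0.07), COL8A2 (-0.04), COL5A1 (-0.04) and COL9A2 (-0.03). Above 0 were COL17A1 (0.65), COL11A1 (0.50), COL2A1 (0.21), COL6A3 (0.12), COL27A1 (0.08) and COL16A1 (0.04).

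Whether insulin acted differently by plasmid was tested as the difference of the insulin effects, H1047R minus control. It was called for 12 of 35 chains, 7 lower and 5 higher, where 9.07% of all genes were called (4.49% lower and 4.58% higher), and DESeq2 called 7 lower and 6 higher. On the lower side, COL3A1 had a difference of -1.05 ± 0.055 (adjusted p = 4.20e-18), COL1A2 of -0.87 ± 0.054 (adjusted p = 5.09e-16), COL5A2 of -0.65 ± 0.061 (adjusted p = 4.64e-11) and COL1A1 of -0.53 ± 0.046 (adjusted p = 6.56e-12). COL8A2, COL12A1 and COL14A1 made up the rest, at -1.12, -0.55 and -2.70. On the higher side, COL13A1 had a difference of 1.74 ± 0.125 (adjusted p = 3.79e-14) and COL8A1 of 0.75 ± 0.071 (adjusted p = 7.17e-11), followed by COL27A1 at 0.64, COL4A6 at 0.51 and COL7A1 at 1.04. COL5A1, COL4A1, COL4A2, COL4A4 and COL18A1 fell in H1047R cells, yet their differences of -0.19, -0.07, 0.06, -0.73 and -0.18 did not pass this test.

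The call for COL7A1 was lost without any one of 5 libraries (H1047R insulin replicate 2, H1047R vehicle replicate 2, control insulin replicate 3, control vehicle replicate 1 and control vehicle replicate 2), at adjusted p of 0.00156 to 0.00328. COL17A1 had a difference of 1.93 ± 0.534 and an adjusted p of 0.00646, and without H1047R vehicle replicate 1 the difference was 2.54 with an adjusted p of 6.10e-05. COL4A4 passed without H1047R vehicle replicate 3 (adjusted p = 0.000573). COL6A1 had a difference of 0.20 (adjusted p = 0.00588), which DESeq2 called (adjusted p = 0.000335), as did the fit with no filter. The other chains of at least 1 CPM without a call were COL2A1 (-0.94), COL9A2 (-0.52), COL11A1 (-0.49), COL9A3 (-0.36), COL5A3 (0.08), COL4A5 (0.14), COL6A2 (0.16), COL6A3 (0.26) and COL16A1 (0.43).

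**Figure D3:**
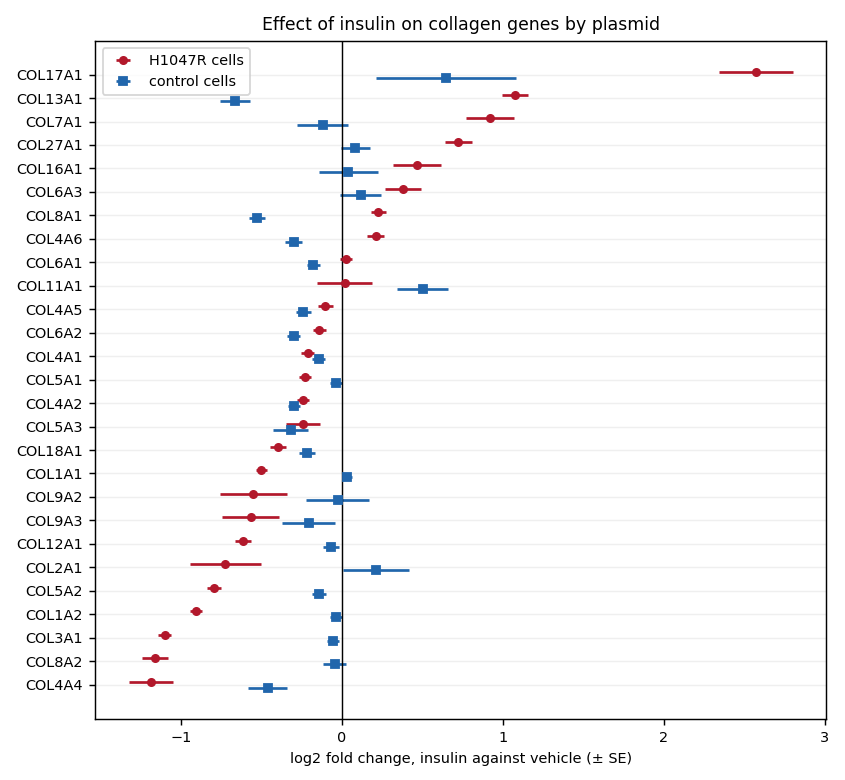
Log2 fold change of insulin against vehicle, with its standard error, in H1047R cells (circles) and control cells (squares) for the 27 collagen chain genes averaging at least 1 CPM, ordered by the value in H1047R cells. COL13A1 (1.08 and -0.66) and COL8A1 (0.23 and -0.53) lie on opposite sides of 0 in H1047R and control cells, and COL3A1 lies at -1.10 in H1047R cells and -0.06 in control cells.

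To examine the effect of H1047R with insulin present, H1047R insulin was compared with control insulin. The H1047R insulin libraries are shared with the insulin comparison in H1047R cells, so the values stand side by side and are not independent. Of the 35 chains, 13 were lower and 8 higher in H1047R insulin than in control insulin, where 23.5% of all genes were called (12% lower and 11.4% higher). Fibrillar chains made up 7 of the lower ones, among them COL3A1 at -1.22 ± 0.040 (adjusted p = 5.22e-26), COL1A2 at -0.96 ± 0.038, COL2A1 at -0.88 ± 0.211 and COL5A2 at -0.85 ± 0.043. COL3A1 had 927, 923 and 877 CPM in H1047R insulin, against 2028, 2076 and 2263 CPM in control insulin. Outside the fibrillar class, log2 fold changes were -1.35 ± 0.077 for COL8A2, -3.02 ± 0.352 for COL14A1, -0.56 ± 0.049 for COL12A1, -0.40 ± 0.051 for COL18A1 and -0.997 ± 0.138 for COL4A4. COL1A1 (-0.57) and COL5A1 (-0.21) were among the lower fibrillar chains.

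COL17A1 was higher by a log2 fold change of 3.22 ± 0.243 (adjusted p = 2.57e-14) in H1047R insulin, COL13A1 by 1.85 ± 0.085 (adjusted p = 5.29e-21) and COL8A1 by 0.77 ± 0.050 (adjusted p = 3.19e-16). COL16A1, a FACIT chain, had 4.57, 3.58 and 4.56 CPM in H1047R insulin, against 1.84, 2.23 and 2.43 CPM in control insulin (log2 fold change 0.97 ± 0.154, adjusted p = 1.65e-06). COL4A6 (0.53), COL27A1 (0.61), COL7A1 (0.79) and COL6A3 (0.51) completed the higher chains. The lower calls of COL11A1 (-0.73), COL2A1 (-0.88) and COL4A1 (-0.17) and the higher call of COL6A3 were each lost when control insulin replicate 2 was left out, at adjusted p of 0.00756, 0.00473, 0.00765 and 0.00205. They were also each lost without H1047R insulin replicate 3, at adjusted p of 0.00278, 0.00240, 0.00475 and 0.00237. H1047R insulin replicate 1 decided the calls of COL2A1 (0.00245), COL4A1 (0.00736) and COL6A3 (0.00354), and H1047R insulin replicate 2 those of COL2A1 (0.00541) and COL4A1 (0.00189). Control insulin replicate 3 did so for COL4A1 (0.00427) and COL6A3 (0.00197), control insulin replicate 1 for COL2A1 (0.00827) and H1047R vehicle replicate 1 for COL4A1 (0.00184). DESeq2 called neither COL2A1 (0.00424) nor COL4A1 (0.00194). The chains of at least 1 CPM without a call were COL9A2 (log2 fold change -0.63), COL9A3 (-0.66), COL6A1 (0.09), COL6A2 (0.05), COL4A5 (0.04), COL5A3 (0.01) and COL4A2 (-0.03), and COL9A2 passed without H1047R insulin replicate 1 (adjusted p = 0.000699).

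Without insulin, H1047R gave no call among the 35 chains, where 0.158% of all genes were called (0.0176% lower and 0.141% higher). At an unadjusted p below 0.05 the edgeR test had 12 chains lower and 2 higher. The share of all genes at that limit was not taken. At an FDR below 0.05, 3 chains were lower and 0 higher, against 134 lower and 142 higher of all 22756 genes. DESeq2 called 0 in either direction at an FDR below 0.001, and the median over the chains was -0.10. COL3A1 had 1821, 2035 and 1998 CPM in H1047R vehicle, against 2232, 2233 and 2152 CPM in control vehicle, so the groups did not overlap, and the log2 fold change was -0.18. COL5A2 had 970.4, 1098 and 1091 CPM in H1047R vehicle, against 1226, 1248 and 1143 CPM in control vehicle, with a log2 fold change of -0.20. Neither passed the threshold of 0.001. COL17A1 (2.46-fold, adjusted p = 0.109) and COL16A1 (1.45-fold, adjusted p = 0.135) had the values farthest above 0 among chains of at least 1 CPM. On the log2 scale, COL6A3 (0.25), COL13A1 (0.11), COL2A1 (0.05), COL4A6 (0.02) and COL8A1 (0.02) were above 0. Between -0.30 and -0.20 lay COL9A3, COL4A4, COL7A1, COL11A1, COL8A2 and COL18A1. Between -0.12 and 0 lay COL6A2, COL9A2, COL6A1, COL4A1, COL1A2, COL4A5, COL4A2, COL5A3, COL1A1, COL27A1, COL5A1 and COL12A1. In 14 of the 17 chains called for insulin in H1047R cells, H1047R vehicle replicate 1, which had the highest PIK3CA level of that group, was the library of its group nearest to H1047R insulin. The 14 chains rest on the same library, which stood apart from replicates 2 and 3 over genes in general. How often this held over all called genes was not taken, so it is no result about collagen. The part of the PIK3CA level in it was not tested.

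**Figure D4:**
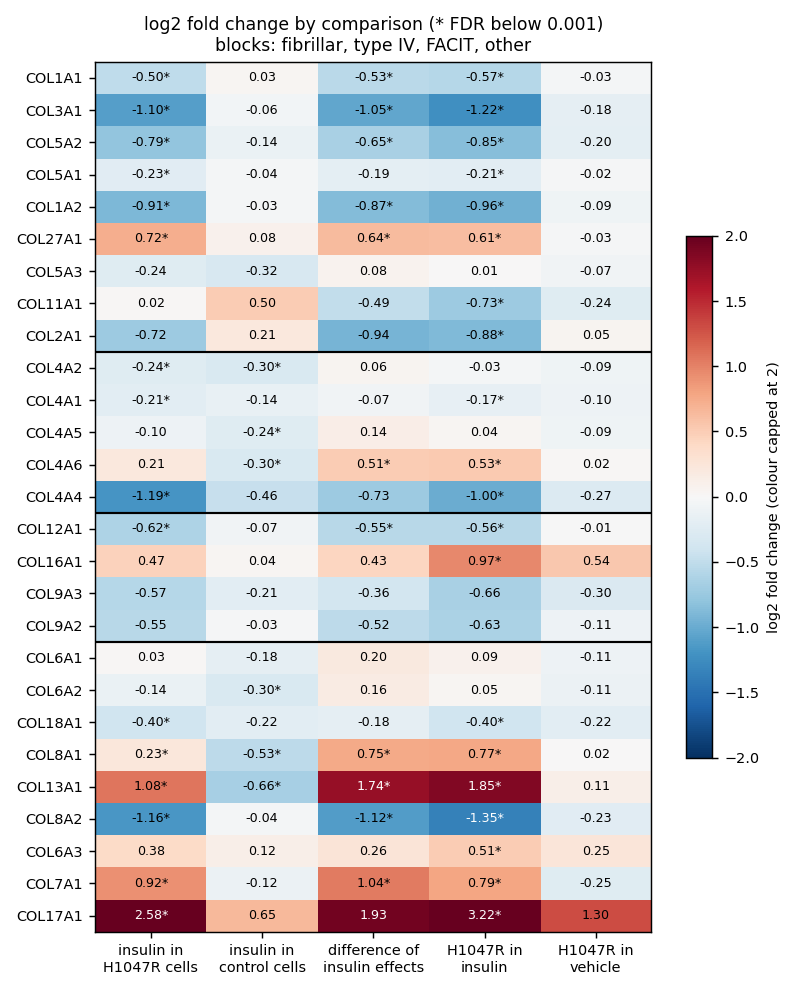
Log2 fold changes of 27 collagen chain genes in 5 comparisons, with genes in blocks by class (fibrillar, type IV, FACIT, other) and an asterisk where the FDR was below 0.001. The H1047R in vehicle column holds no asterisk, and the insulin in control cells column holds none in its fibrillar and FACIT blocks.

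Chains that assemble into the same molecule are compared next as ratios of levels per kb, as a description without a test. The COL1A1 to COL1A2 ratio was 8.33, 8.21 and 8.19 in H1047R insulin, 6.35, 6.08 and 6.26 in H1047R vehicle, 6.47, 6.18 and 6.14 in control insulin and 5.95, 5.89 and 6.11 in control vehicle. The ratio of COL5A1 to COL5A2 was 0.481 ± 0.035 in H1047R insulin, against 0.325 ± 0.020 in H1047R vehicle (SD, n = 3 each). COL8A1 to COL8A2 was 4.45 ± 0.280 in H1047R insulin, 1.70 ± 0.137 in H1047R vehicle, 1.02 ± 0.085 in control insulin and 1.42 ± 0.048 in control vehicle. In these 3 pairs, every H1047R insulin library stood above all others. The COL4A6 to COL4A5 ratio was 0.602, 0.618 and 0.630 in H1047R insulin, above the highest value of the other groups, 0.521 in H1047R vehicle, and averaged 0.497 in H1047R vehicle, 0.441 in control insulin and 0.460 in control vehicle. For COL4A1 to COL4A2, the other pair with a shared start region shown above, it was 0.671, 0.698 and 0.686 in H1047R insulin and 0.652, 0.671 and 0.693 in H1047R vehicle. In control insulin that ratio was 0.757, 0.755 and 0.745, above all other libraries, and in control vehicle 0.668, 0.669 and 0.690. For COL6A1 to COL6A2 the ratio was 1.487, 1.425 and 1.499 in H1047R insulin, overlapping 1.402, 1.412 and 1.455 in control insulin. The vehicle libraries of both plasmids lay lower, at most at 1.344 in H1047R vehicle. These ratios rest on exon lengths from an annotation and serve to compare groups.

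The genes of collagen production and turnover were taken from 6 lists of 60 genes. Procollagen needs hydroxylation and folding in the endoplasmic reticulum, and of 19 genes for this step 3 rose and 4 fell with insulin in H1047R cells (median log2 fold change -0.07), where 9.85% of all genes rose and 9.8% fell. P4HA2, a prolyl hydroxylase subunit, rose by 0.36 ± 0.041 (adjusted p = 1.58e-09) and PLOD3 by 0.28, while P4HA3 fell by 0.74 on the log2 scale and P3H3 by 0.24. PLOD2, a lysyl hydroxylase, rose by 0.16 (adjusted p = 0.000673). In control cells 3 rose and 0 fell with insulin (9 higher and 2 lower at an unadjusted p below 0.05 in edgeR, 5 and 0 in DESeq2), where 1.63% of all genes were called, namely P4HA1 (0.27), P4HA2 (0.21) and SERPINH1 (0.20), the collagen chaperone HSP47. SERPINH1 had 675, 671 and 637 CPM in H1047R insulin, 704, 699.6 and 679.7 CPM in H1047R vehicle, 787, 831 and 877 CPM in control insulin and 753, 700.2 and 724 CPM in control vehicle. Its insulin effects differed by plasmid (difference -0.27 ± 0.054, adjusted p = 0.000194), without a call in H1047R cells (log2 fold change -0.07, adjusted p = 0.158).

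Against the same 9.85% and 9.8% of all genes, 3 of 10 secretion genes rose with insulin in H1047R cells and 1 fell. SAR1A rose by 0.37, SEC24D by 0.25 and TFG by 0.20, and SEC23A fell by 0.20 on the log2 scale. In control cells 0 secretion genes were called by edgeR or DESeq2, where 1.63% of all genes were called by edgeR. At an unadjusted p below 0.05 in edgeR, 3 of them were higher and 0 lower. Propeptide cleavage, which turns procollagen into fibril-forming collagen outside the cell, had 5 of 8 genes lower and 0 higher in H1047R cells (median -0.52), where 9.8% of all genes were lower, with 6 lower and 0 higher at an unadjusted p below 0.05 in edgeR and 4 lower (all but PCOLCE) and 0 higher in DESeq2. ADAMTS2, the main procollagen N-proteinase, had 25.7, 25.1 and 23.5 CPM in H1047R insulin, against 45.2, 51.8 and 48.4 CPM in H1047R vehicle (log2 fold change -0.97 ± 0.055, adjusted p = 9.22e-18). ADAMTS3, a related proteinase, changed by -1.10, TLL1, a relative of the C-proteinase BMP1, by -1.54, and the C-proteinase enhancer PCOLCE by -0.48. In control cells 0 of these 8 genes were called by edgeR or DESeq2, where 1.63% of all genes were called by edgeR. At an unadjusted p below 0.05 in edgeR, 1 was higher and 1 lower. The differences between plasmids were called for ADAMTS2 (fold 0.499), ADAMTS3 (-0.87 on the log2 scale) and TLL1 (-1.42), where 4.49% of all genes were called lower.

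Of 6 cross-linking genes 1 rose and 2 fell in H1047R cells, where 19.6% of all genes were called. LOX, the lysyl oxidase, rose, with 402, 403 and 414 CPM in H1047R insulin, against 329, 329 and 341 CPM in H1047R vehicle (log2 fold change 0.29 ± 0.038, adjusted p = 4.97e-08). The peroxidasin gene PXDN, which cross-links type IV collagen, changed by -0.45 and LOXL2 by -0.18. With insulin in control cells 1 of the 6 genes was called and fell, where 1.63% of all genes were called. PXDN had 576 ± 10.6 CPM in control insulin and 656 ± 6.06 CPM in control vehicle (SD, n = 3 each). Of 8 tested collagen receptor genes, 1 rose and 4 fell in H1047R cells, where 19.6% of all genes were called. ITGA2, which pairs with the product of ITGB1 to bind type I collagen, had 219.7, 208 and 213 CPM in H1047R insulin, 73.9, 57.9 and 66.0 CPM in H1047R vehicle, 46.2, 44.4 and 39.0 CPM in control insulin and 55.7, 56.3 and 54.0 CPM in control vehicle. It rose with insulin in H1047R cells (log2 fold change 1.70 ± 0.056, adjusted p = 5.69e-25) and fell in control cells (-0.36, adjusted p = 9.72e-05). ITGA11 fell under both plasmids, with log2 fold changes of -0.44 in H1047R cells and -0.37 in control cells, and MRC2, a collagen uptake receptor, changed by -0.42 in H1047R cells.

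Of 6 tested collagenases and cathepsin K, 2 rose and 1 fell with insulin in H1047R cells, where 19.6% of all genes were called. MMP1, the interstitial collagenase, had 3.89, 3.77 and 3.50 CPM in H1047R insulin, against 0.631, 0.389 and 0.456 CPM in H1047R vehicle (log2 fold change 2.91 ± 0.277, adjusted p = 2.13e-11). The other was MMP9, a gelatinase averaging 0.139 CPM. MMP2, the other gelatinase, had 37.7, 37.4 and 37.3 CPM in H1047R insulin, against 68.0, 72.6 and 67.1 CPM in H1047R vehicle (log2 fold change -0.89 ± 0.050, adjusted p = 6.50e-18). With insulin in control cells 1 of the 6 tested genes was called and fell, where 1.63% of all genes were called. MMP2 had 65.1 ± 3.15 CPM in control insulin and 76.9 ± 3.39 CPM in control vehicle (SD, n = 3 each). Without insulin, H1047R gave 0 calls in any of the 6 lists, where 0.158% of all genes were called, and DESeq2 gave 0 as well (2 higher and 8 lower of 57 at an unadjusted p below 0.05 in edgeR).

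With insulin present, H1047R left 7 of 19 hydroxylation and folding genes lower and 2 higher than in control insulin, where 12% of all genes were lower and 11.4% higher. SERPINH1 had a log2 fold change of -0.33 ± 0.038 (adjusted p = 1.66e-09) and P4HA2 of 0.28. Of the 8 propeptide cleavage genes 4 were lower, TLL1 at -1.50, ADAMTS3 at -1.08, ADAMTS2 at -1.04 and BMP1 at -0.26. Of the 10 secretion genes 1 was higher and 1 lower, and of the 6 cross-linking genes 1 was higher and 2 lower. Of the 8 tested receptor genes 2 were higher and 3 lower, and of the 6 tested collagenases and cathepsin K 2 were higher and 1 lower. LOX was higher by 0.34 and ITGA2 by 2.30, while the MMP2 difference was -0.80.

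**Figure D5:**
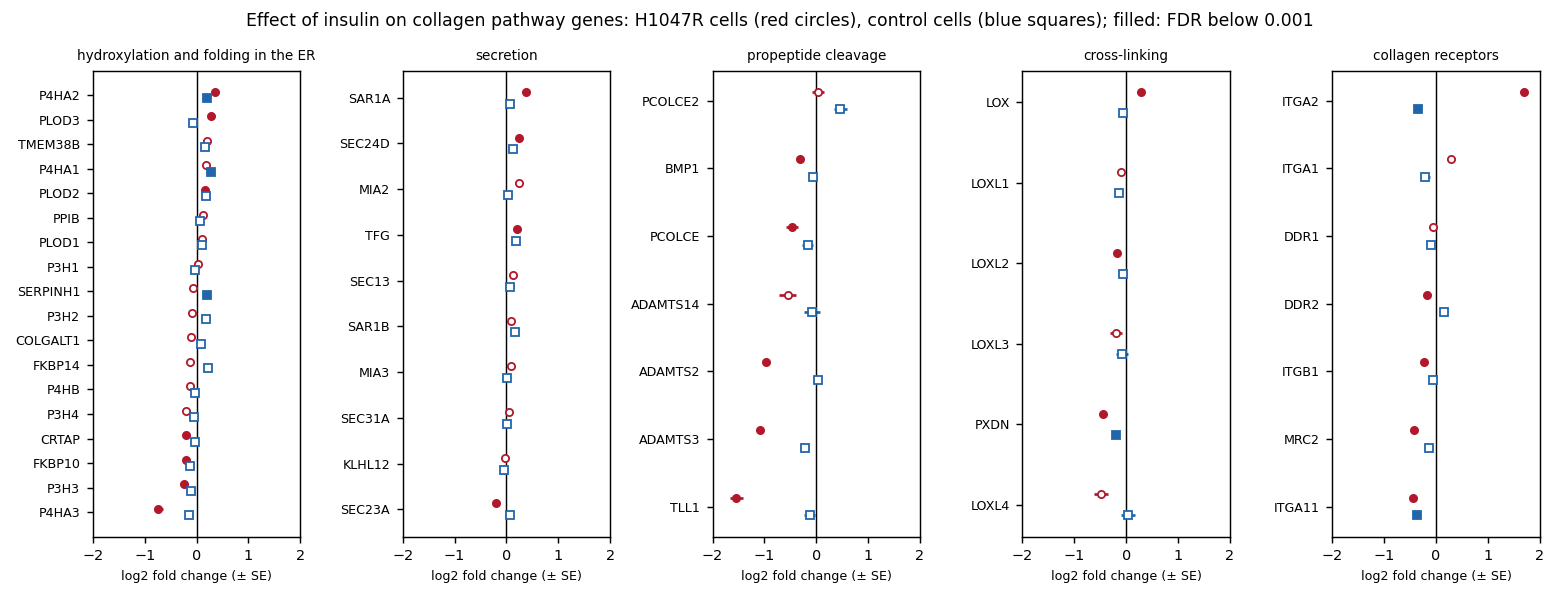
Log2 fold change of insulin against vehicle, with its standard error, in H1047R cells (circles) and control cells (squares) for genes averaging at least 1 CPM in 5 lists of collagen production and binding, with filled symbols where the FDR was below 0.001. In the propeptide cleavage panel TLL1 (-1.54), ADAMTS3 (-1.10) and ADAMTS2 (-0.97) lie far to the left in H1047R cells, and ITGA2 (1.70) stands apart among the receptors.

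Small matrix proteins of the stromal marker list moved with the fibrillar chains. DCN, the collagen-binding proteoglycan decorin, had 10.1, 9.90 and 7.55 CPM in H1047R insulin, against 61.0, 84.7 and 83.8 CPM in H1047R vehicle (log2 fold change -3.07 ± 0.097, adjusted p = 1.45e-25). LUM, the related lumican, had 86.0, 86.8 and 69.1 CPM in H1047R insulin, against 267, 336 and 349 CPM in H1047R vehicle (log2 fold change -1.98 ± 0.071, adjusted p = 5.41e-24). Of the 12 stromal markers 7 fell and 2 rose, VIM by 0.17 and NT5E by 1.41, where 19.6% of all genes were called. All libraries came from the same cell line, and the part of a changed mix of cells within it in the collagen values was not tested.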

How the data were processed

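RNA-seq libraries of 12Z cells (12 libraries, 3 per group) had an input of 500 ng total RNA and were prepared with a kit that keeps strand. Per the labels and methods, adapters were removed by the authors (cutadapt, Trim Galore) before STAR alignment against hg38. The deposited values are STAR's raw counts per gene, from read pairs with a single placement. The methods name a mouse GENCODE release beside hg38. The human release, and the versions of the trimming and alignment tools, are not stated in the sources used here. Reverse-strand counts, which held 93.5 to 93.7% of strand-specific gene counts, were used. Unmapped (3.12 to 4.09% of reads), multiply placed (8.48 to 15.4%), unassigned (3.91 to 4.55%) and ambiguous (3.31 to 3.61%) reads stayed out of library sizes.

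The quasi-likelihood test of edgeR 4.0.16 (R 4.3.3), with TMM factors and a coefficient for each group, was fitted to all 12 libraries together, for genes with an average of 1 count or more per library. Benjamini-Hochberg adjusted p-values were taken over all 22756 genes and genes were called at an FDR below 0.001, so every adjusted p is from edgeR unless DESeq2 1.42.0 is named. The SE is the size of the log2 fold change over the root of the F statistic. CPM was scaled by TMM. Counting limits cover counting error only. Counts at an unadjusted p below 0.05 have no share of all genes beside them. They cannot be set against the shares at an FDR below 0.001. Symbols, coordinates and exon lengths came from GENCODE v44 and start windows from RefSeq.

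All chains called are named, with those of at least 1 CPM not called. From each pathway list up to 4 called genes of at least 1 CPM with the largest change are named, but not in every comparison. SERPINH1, P4HA1, P4HA2, LOX and PLOD2 were followed as well, and not all of their values are given. Members and lists were chosen with earlier results of these data known. Alternatives were DESeq2, other scalings, other filters, counts without strand, only the groups compared, a replicate block, leaving out each library and an FDR below 0.05.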

Additional observations from a re-analysis of the deposited data

Results flagged for a closer look

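The insulin effect differed between H1047R and control cells, by the edgeR test of the difference itself, for 12 of 35 tested collagen chain genes. Of all 22756 tested genes, 9.07% were called in that test. The difference of log2 fold changes (H1047R minus control) was -1.05 for COL3A1, -0.87 for COL1A2, -0.65 for COL5A2, -0.53 for COL1A1, -0.55 for COL12A1, -2.70 for COL14A1 and -1.12 for COL8A2. It was 1.74 for COL13A1, 1.04 for COL7A1, 0.75 for COL8A1, 0.64 for COL27A1 and 0.51 for COL4A6. COL14A1 averaged 0.793 CPM, and its value rests on few counts.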

How the results depend on the processing

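Of 56 calls of single collagen chains over the 5 comparisons, 47 kept their direction and their side of the threshold under every alternative, 0 reversed, 9 were lost when at least 1 library was left out and 3 were lost under another alternative. At an FDR below 0.05, insulin in H1047R cells gave 9 chains higher and 16 lower, against 3940 and 3872 of all 22756 genes. Insulin in control cells gave 0 and 11, against 525 and 681 of all genes. H1047R in insulin gave 8 and 17, against 4217 and 4557. H1047R in vehicle gave 0 and 3, against 142 and 134. The difference of insulin effects gave 9 and 10, against 2363 and 2485. Without a filter on low counts, 2 chains were lower for H1047R in vehicle (COL3A1 and COL5A2), where 53 of all 34195 genes were lower. Leaving out each library in turn gave 4 to 6 higher and 11 to 12 lower chains for insulin in H1047R cells, 0 higher and 4 to 8 lower for insulin in control cells, 7 to 8 higher and 10 to 13 lower for H1047R in insulin, 0 for H1047R in vehicle, and 4 to 6 higher and 7 to 8 lower for the difference. Over all genes, insulin in H1047R cells gave 1965 higher and 2631 lower calls with upper-quartile scaling and 2662 higher and 1902 lower with library totals only, against 2242 and 2229 with TMM.

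Deviations from group means correlated at -0.096 to 0.119 for same-numbered libraries and -0.112 to 0.120 for others. Between H1047R insulin and H1047R vehicle the same-numbered values were 0.119, 0.063 and 0.030, and the others ran from -0.112 to 0.073. With 3 libraries per group, such values cannot settle whether replicate numbers pair the libraries. With the replicate block, 6 chains were higher and 12 lower for insulin in H1047R cells, 0 and 6 for insulin in control cells, 8 and 13 for H1047R in insulin, 0 and 0 for H1047R in vehicle and 5 and 7 for the difference. The higher chain gained in H1047R cells was COL4A6 (adjusted p = 0.000702). Depth limits the scarce chains, and among those called COL2A1, COL7A1, COL11A1, COL14A1, COL16A1 and COL17A1 had at most 49, 179, 157, 35, 176 and 182 counts in any library.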
